A study of Homo sapiens with 24 samples.

Results

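The constitutive HSP70 and HSP110 genes named here are 9 members of the human HSPA and HSPH chaperone family, set apart from the HSP70 genes HSPA1A, HSPA1B, HSPA1L and HSPA6, which are known for being induced by heat. The group was given as a list of gene symbols, which were matched through the GENCODE v29 annotation to the Ensembl identifiers of the count tables. It holds the cytosolic HSP70 genes HSPA8 and HSPA2, the HSP110 genes HSPH1, HSPA4 and HSPA4L, and the more distant relatives HSPA14, HSPA13, HSPA12A and HSPA12B. These are 9 of the 57500 genes counted, and all 9 had counts in every library.

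RNA was sequenced from spheroids, which are multicellular aggregates, of FaDu and SAS, established cell lines of human head and neck squamous cell carcinoma (HNSCC). The study set hyperthermia (HT), irradiation (RT) and their combination side by side to ask how heat changes the response of such spheroids to radiation. HT was 42.5 °C over 60 min, RT was a single dose of 7 Gy in FaDu and 10 Gy in SAS spheroids, and HT + RT was the same heating followed by the same dose. Controls received neither treatment, every sample was taken 0.5 h after treatment, and each of the 8 groups had 3 libraries, which gives 24 in all.

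HSP70 proteins bind exposed hydrophobic stretches of unfolded proteins in a cycle driven by ATP. J-domain proteins bring substrates and speed up hydrolysis, while nucleotide exchange factors release ADP and with it the substrate. HSP110 proteins are enlarged relatives of HSP70 that act as exchange factors for it and hold unfolded proteins in solution. Heat activates heat shock factor 1 (HSF1), which binds heat shock elements, repeats of a short unit in alternating orientation, in front of chaperone genes.

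The smallest library held 15203484 counts in total and the middle of the series lay at 18378943. The deepest were FaDu HT + RT replicate 3 (29452514), FaDu RT replicate 3 (23481395) and FaDu control replicate 3 (21862472), and the others held 15203484 to 20981315. At this depth HSPA8 had 29310 to 121532 counts per library, HSPH1 3013 to 78967, HSPA4 6280 to 18091, HSPA4L 416 to 3350 and HSPA14 700 to 1384. HSPA13 had 187 to 795, HSPA2 61 to 1274 and HSPA12A 68 to 457 counts, whereas HSPA12B had only 3 to 23, so that its values are imprecise. Levels are given in CPM, a gene's counts scaled to the same library total for all libraries, with TMM scaling over the series, and with the standard deviation (SD) over n = 3 libraries.

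Replicate 1 lay apart from replicates 2 and 3 in every FaDu group. The chi-square per gene, which is about 1 where 2 libraries differ by sampling noise alone, was 15.1 to 21.99 between FaDu replicate 1 and either other replicate, and 3.51 to 5.09 between replicates 2 and 3. In SAS spheroids it lay between 4.61 and 11.8 for all pairs. Values without every FaDu replicate 1 are therefore given as well for HSPA8, HSPH1, HSPA4L and HSPA13.

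All 6 markers of squamous epithelium that were looked up (KRT5, KRT14, KRT6A, TP63, EPCAM and CDH1) had counts in every group. Summed, they held 4595 to 6051 CPM in FaDu and 1922 to 2298 CPM in SAS libraries, with KRT5 the most abundant. By edgeR, at an adjusted p under 0.05, 1 of the 6 fell with HT in FaDu and 1 rose in SAS spheroids. Of all genes tested, 17.6% and 23.6% passed this threshold in either direction. The log2 fold changes of the 6 ran from -0.50 to 0.22 and from -0.28 to 0.85. In HT + RT against RT, 1 fell in FaDu and 3 rose in SAS spheroids, against 19.3% and 27.8% of all genes tested. Of the 3 fibroblast markers, COL1A1 carried nearly the whole sum, and it moved with heat in SAS spheroids. The summed level was 1.79, 1.31 and 2.24 CPM in SAS controls and 31.0, 16.8 and 24.6 CPM after HT, while COL1A2 and PDGFRB stayed at or under 0.365 and 0.79 CPM in all libraries. In FaDu spheroids the sum was 36.0 to 47.3 CPM in controls and 48.2 to 63.9 CPM after HT. Endothelial markers summed to 6.17 to 23.6 CPM, mostly CDH5, and leukocyte markers to 1.18 to 2.81 CPM, mostly CD68, with PTPRC and CD3E both without counts in FaDu HT, SAS RT and SAS HT. The part of the COL1A1 level in the results for SAS spheroids was not tested. In such bulk samples fewer cells with a transcript and less of it per cell cannot be told apart.

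The 9 members differed widely in level. Per kilobase (kb) of merged exons, HSPA8 was the most abundant member in all 8 groups, at 411 CPM per kb in FaDu and 449 in SAS controls. HSPA4 followed with 80.8 and 77.8 CPM per kb, then HSPH1 with 25.6 and 59.9 and HSPA14 with 16.4 and 21.3. HSPA2 stood at 5.68 in FaDu but 0.715 CPM per kb in SAS controls, and HSPA13 at 3.62 and 10.0. HSPA4L stood at 2.65 and 2.28 CPM per kb, and the lowest members on this scale in controls of both lines were HSPA12A (1.06 and 0.464) and HSPA12B (0.228 and 0.115 CPM per kb). With HT, HSPH1 reached 74.3 CPM per kb in FaDu and 421 in SAS spheroids, where it stood second to HSPA8 at 786.

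**Figure D1:**
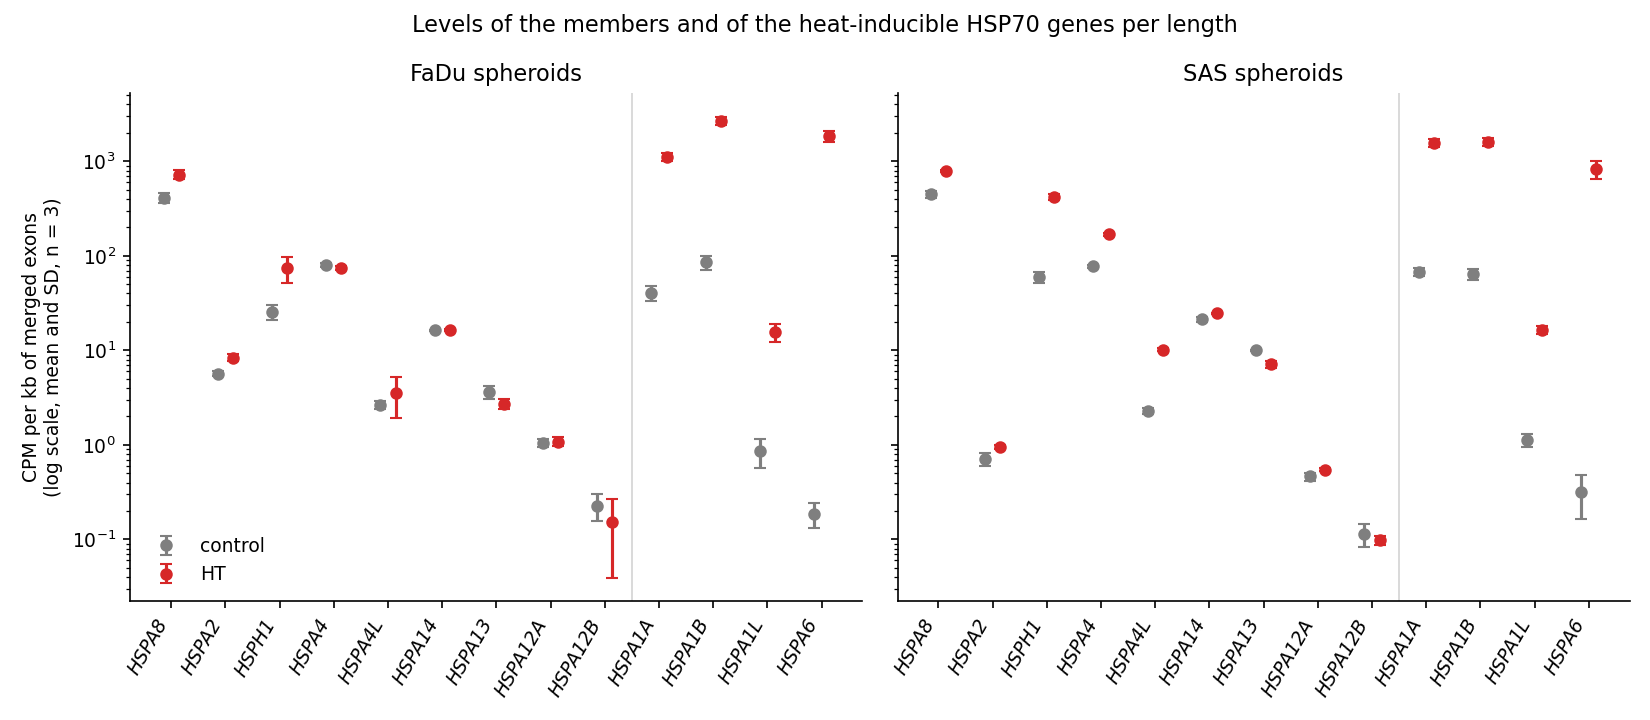
Level of each member, and of the 4 heat-inducible HSP70 genes to the right of the line, in CPM per kb of merged exons on a log scale, for controls (grey) and HT (red), as mean and SD of 3 libraries. HSPA8 stands highest among the members, at 411 CPM per kb in FaDu and 449 in SAS controls, and HSPH1, HSPA4 and HSPA4L lie further from their controls in SAS than in FaDu spheroids.

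In the tests, a gene is said to have risen or fallen at an adjusted p under 0.05 by edgeR, with the adjustment over all genes tested, and to be altered if its absolute log2 fold change was also over 1. All 9 members were tested except HSPA12B, which had too few counts for the comparisons within SAS spheroids and for that between heated lines. More members were altered by heat in SAS than in FaDu spheroids, and the tests of the difference itself are given with each gene. With HT, 1 of 9 members was altered in FaDu spheroids (HSPH1), against 4.97% of all genes tested, and 3 rose (HSPA8, HSPA2 and HSPH1), against 17.6% of all genes past the adjusted p alone. In SAS spheroids, HT altered 3 of 8 (HSPH1, HSPA4 and HSPA4L), against 6.03% of all genes, and 6 passed the adjusted p alone, of which HSPA8 and HSPA14 rose and HSPA13 fell beside those 3, against 23.6% of all genes.

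The heat effect was measured again in irradiated spheroids, in HT + RT against RT, which shares no library with HT against control. In FaDu spheroids 2 of 9 members were altered (HSPA8 and HSPH1), against 5.39% of all genes, and 4 rose (HSPA2 and HSPA4L besides), against 19.3% of all genes at the adjusted p alone. In SAS spheroids it was the same 3 of 8 that were altered, against 6.6% of all genes, and 5 passed the adjusted p alone (HSPA8 rose and HSPA13 fell besides), against 27.8%. For HT + RT against control, which shares its controls with HT against control, 1 of 9 members was altered in FaDu spheroids (HSPH1), against 5.72%, and 3 rose, against 19.3%. The corresponding numbers in SAS spheroids were 3 of 8, against 6.36%, and 5, against 25.1% of all genes.

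No member passed the test for irradiation by edgeR with the filter for low counts and without a replicate block, a term for the replicate number. Libraries did pair by replicate number in each of these irradiation comparisons, by the check described under processing. Only the fit with the block takes that pairing into account, so the lack of calls without it is a limited result. For RT against control edgeR called 0 of 9 members in FaDu spheroids, where 0.00643% of all genes were altered and 0.0322% passed the adjusted p alone, with 0 members at an unadjusted p under 0.05 and 0 called by DESeq2. In SAS spheroids edgeR called 0 of 8, where 0.0272% and 0.0749% of all genes passed, and DESeq2 called 0. There 1 member was at an unadjusted p under 0.05 (HSPA2, log2 fold change 0.45, edgeR adjusted p = 0.801). The share of all genes at that unadjusted threshold was not taken. In heated spheroids, HT + RT against HT measures what irradiation adds. There edgeR called 0 members and 0% of all genes in either line and by either rule. At an unadjusted p under 0.05 there were 0 members in FaDu and 3 in SAS spheroids (HSPH1, HSPA4L and HSPA13). The share of all genes at this unadjusted threshold was not taken here either, so the count of 3 is a description only. DESeq2 called 0 in FaDu and 1 in SAS spheroids, HSPA4L at the adjusted p alone, against 0.178% of all genes by DESeq2. With the block, edgeR called HSPH1 at the adjusted p alone for RT in FaDu spheroids and for HT + RT against HT in both lines, and HSPA4L for HT + RT against HT in SAS spheroids, against 2.01% of all genes for RT in FaDu spheroids and 0.954% in FaDu and 0.906% in SAS spheroids for HT + RT against HT. Without the filter, HSPH1 passed the adjusted p for HT + RT against HT in FaDu spheroids, against 0.127% of all genes, and HSPA4L in SAS spheroids, against 0.295%. The values are given with each gene.

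**Figure D2:**
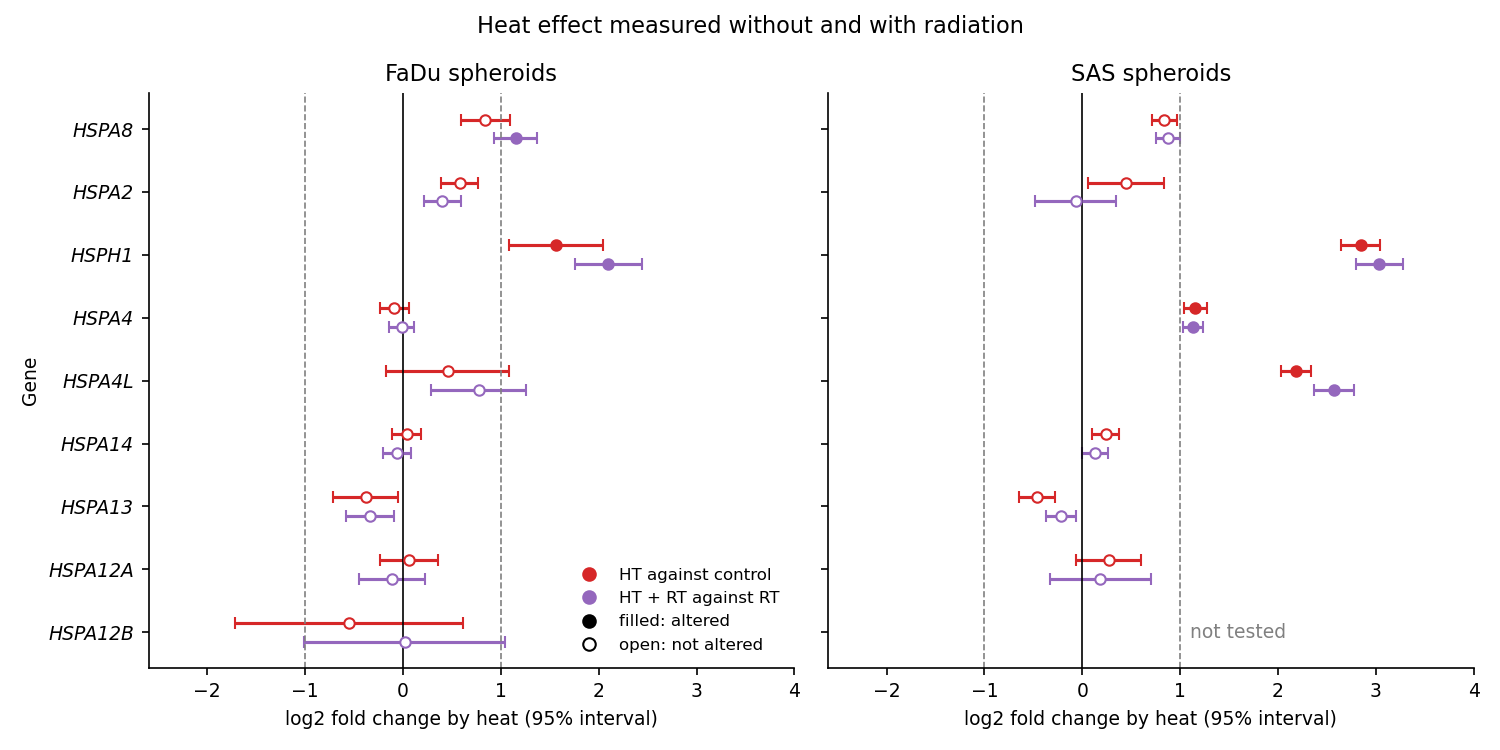
Log2 fold change by heat of each member with its 95% confidence interval, for HT against control (red) and HT + RT against RT (purple) in FaDu (left) and SAS spheroids (right), with dashed lines at the fold limit. Filled points were altered, and HSPH1, HSPA4 and HSPA4L in SAS spheroids lie at 1.13 to 3.04.

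HSPA8 (ENSG00000109971, chromosome 11), also called HSC70, is the housekeeping HSP70 of the cytosol and, besides folding, takes the clathrin coat off vesicles and delivers proteins to lysosomes. Its promoter is shown because, unlike the other members with a window, it holds runs of the heat shock element, and the windows of HSPH1 and HSPA4L are shown beside it for contrast. The unit searched was GAA and its reverse complement TTC, as pairs GAANNTTC (head to head) and TTCNNGAA (tail to tail) and as 3 alternating units, GAANNTTCNNGAA or TTCNNGAANNTTC, each of which overlaps both pairs. All of these patterns were read on both strands in 300-base windows around the transcription start. Capitals mark the matches. The sequences are from RefSeq, build GRCh38.p14: HSPA8 is chr11:123062087-123062386, minus strand, HSPH1 is chr13:31162339-31162638, minus strand, and HSPA4L is chr4:127782072-127782371, plus strand, 1 of its 3 windows.
HSPA8: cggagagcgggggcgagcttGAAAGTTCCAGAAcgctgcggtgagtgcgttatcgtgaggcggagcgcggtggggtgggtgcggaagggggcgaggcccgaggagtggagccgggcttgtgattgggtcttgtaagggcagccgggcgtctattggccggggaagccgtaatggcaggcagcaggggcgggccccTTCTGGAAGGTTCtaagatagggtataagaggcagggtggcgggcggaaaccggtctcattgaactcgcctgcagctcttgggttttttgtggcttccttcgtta
HSPH1: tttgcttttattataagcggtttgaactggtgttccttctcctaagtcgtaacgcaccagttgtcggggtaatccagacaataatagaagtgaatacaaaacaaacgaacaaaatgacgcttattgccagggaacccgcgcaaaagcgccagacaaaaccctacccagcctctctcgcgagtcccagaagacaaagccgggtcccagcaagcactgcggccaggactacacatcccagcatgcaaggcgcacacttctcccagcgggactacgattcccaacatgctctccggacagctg
HSPA4L: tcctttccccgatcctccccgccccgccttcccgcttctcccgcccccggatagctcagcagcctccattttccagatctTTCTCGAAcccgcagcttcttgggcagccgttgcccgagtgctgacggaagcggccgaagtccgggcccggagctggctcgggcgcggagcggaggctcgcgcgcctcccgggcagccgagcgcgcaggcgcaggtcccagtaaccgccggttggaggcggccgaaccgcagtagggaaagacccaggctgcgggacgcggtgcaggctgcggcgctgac

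The HSPA8 window held 2 matches of 3 alternating units, GAAAGTTCCAGAA at bases -230 to -218 and TTCTGGAAGGTTC at bases -55 to -43 from the start. Of all 35116 promoter windows, 0.49% held such a match and 0.0399% held 2 or more. A pair was present in 13.5% of all windows (6.77% head to head, 7.74% tail to tail). The HSPA4L window shown held 1 tail to tail pair, TTCTCGAA, at bases -170 to -163. No match lay in the windows of HSPH1, HSPA4, HSPA2, HSPA13 and HSPA12A, which says only that these letters were not in those windows. Of the heat-inducible HSP70 genes, HSPA6 held 1 match of 3 alternating units. HSPA1A, HSPA1B and HSPA1L held none and only 1 pair each, GAATATTC, so a gene induced by heat can lack the longer match. A window was found for 7 of the 9 members, and HSPA14 and HSPA12B are the other two.

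**Figure D3:**
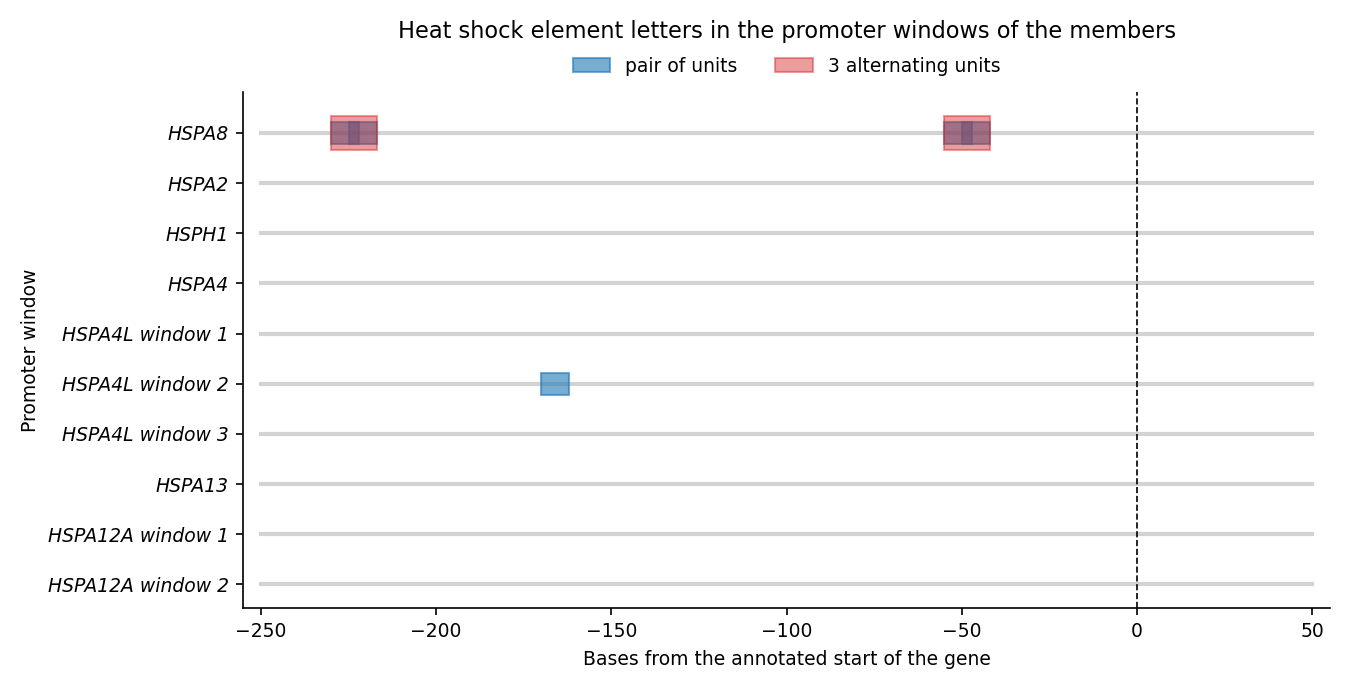
Positions of the matches in the windows of the 7 members found, in bases from the annotated start (dashed line), with pairs in blue and 3 alternating units in red. HSPA8 has 2 of the longer matches, and 1 window of HSPA4L has a single pair.

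In FaDu spheroids, HSPA8 was at 2204, 1723 and 2051 CPM in the control libraries and at 2041, 1561 and 1706 CPM after RT. The HT libraries held 3889, 3104 and 3549 CPM and the HT + RT libraries 3947, 3757 and 3971 CPM. Every heated FaDu library lay above every unheated library, and RT overlapped with control. In SAS spheroids, the control libraries held 2352, 2182 and 2001 CPM and the RT libraries 2283, 2215 and 2047 CPM. After HT they held 3723, 3817 and 3893 CPM, and after HT + RT 3951, 4002 and 3721 CPM. Heated and unheated SAS libraries did not overlap either. Ordered by mean, the groups ran from FaDu HT + RT (3892 ± 117 CPM, SD, n = 3) over SAS HT + RT (3891 ± 150), SAS HT (3811 ± 84.7) and FaDu HT (3514 ± 394) to SAS RT (2182 ± 121), SAS control (2178 ± 175), FaDu control (1993 ± 246) and FaDu RT (1770 ± 246). Neighbours in this order overlapped except at the step from FaDu HT to SAS RT, so the heated groups lay apart from the unheated ones.

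With HT, HSPA8 rose 1.79-fold in FaDu spheroids (log2 fold change 0.84, standard error (SE) 0.11, edgeR adjusted p = 0.00134) and 1.79-fold in SAS spheroids (0.84, SE 0.058, edgeR adjusted p = 8.39e-07). HT + RT against RT compares other libraries and measures the heat effect a second time. There HSPA8 rose 2.22-fold in FaDu (1.15, SE 0.095, edgeR adjusted p = 0.000153) and 1.83-fold in SAS spheroids (0.87, SE 0.055, edgeR adjusted p = 5.41e-07). It was thus altered in 1 of these 4 comparisons and short of the fold limit in the other three. For HT + RT against control the log2 fold changes were 0.99 in FaDu (SE 0.092, edgeR adjusted p = 0.000167) and 0.89 in SAS spheroids (SE 0.054, edgeR adjusted p = 3.14e-07), and the first of them passed the fold limit without FaDu control replicate 1 (1.06) or without FaDu HT + RT replicate 2 (1.01). It also did so without replicate 1 of both groups (1.05), and HSPA8 was then altered.

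The heat response of HSPA8 was tested for a difference between the lines. The log2 fold change by HT in FaDu minus that in SAS spheroids was 0.034, with a 95% confidence interval from -0.25 to 0.31 (edgeR adjusted p = 0.959). In irradiated spheroids the difference was 0.26 (SE 0.12, edgeR adjusted p = 0.241). Without FaDu RT replicate 1 it was 0.42 (edgeR adjusted p = 0.00742), and without every FaDu replicate 1 0.36 (edgeR adjusted p = 0.0155). Without a filter for low counts it was 0.30 (edgeR adjusted p = 0.00762). Whether heat raised HSPA8 more in irradiated FaDu than in irradiated SAS spheroids thus depended on which libraries and genes were in the fit.

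HSPA8 supplied most of the cytosolic HSP70 transcripts of unheated spheroids but a minor share after heat. Its share is given as a percentage of the counts of HSPA8, HSPA2, HSPA1A, HSPA1B, HSPA1L and HSPA6 together. In controls it was 85.0 ± 0.688% in FaDu and 86.5 ± 0.651% in SAS spheroids (SD, n = 3), and after RT 85.7 ± 0.741% and 87.6 ± 1.57%. After HT it was 20.1 ± 3.04% and 27.7 ± 1.86%, and after HT + RT 21.3 ± 1.71% and 26.1 ± 1.93%. Per kb of coding sequence the 4 heated groups stood at 19.99, 27.6, 21.2 and 25.99% in the same order, and per kb of merged exons lower, at 11.4, 16.4, 12.1 and 15.3%. The highest heated library (29.4%, SAS HT) lay far below the lowest unheated library (84.4%, FaDu control). Over the same groups the summed level of the 6 genes went from 2346 ± 305 CPM in FaDu controls to 17573 ± 1395 CPM after HT, and from 2517 ± 208 to 13793 ± 1246 CPM in SAS spheroids, so that the rise of HSPA8 itself was a small part of the gain. HSPA6 shares 45.5% of its 50-base runs with HSPA7, which is not in the sum, and its count may depend on how such reads were assigned. HSPA1A and HSPA1B share 71.3% and 71.4% of their runs with each other, and the same holds for their counts.

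**Figure D4:**
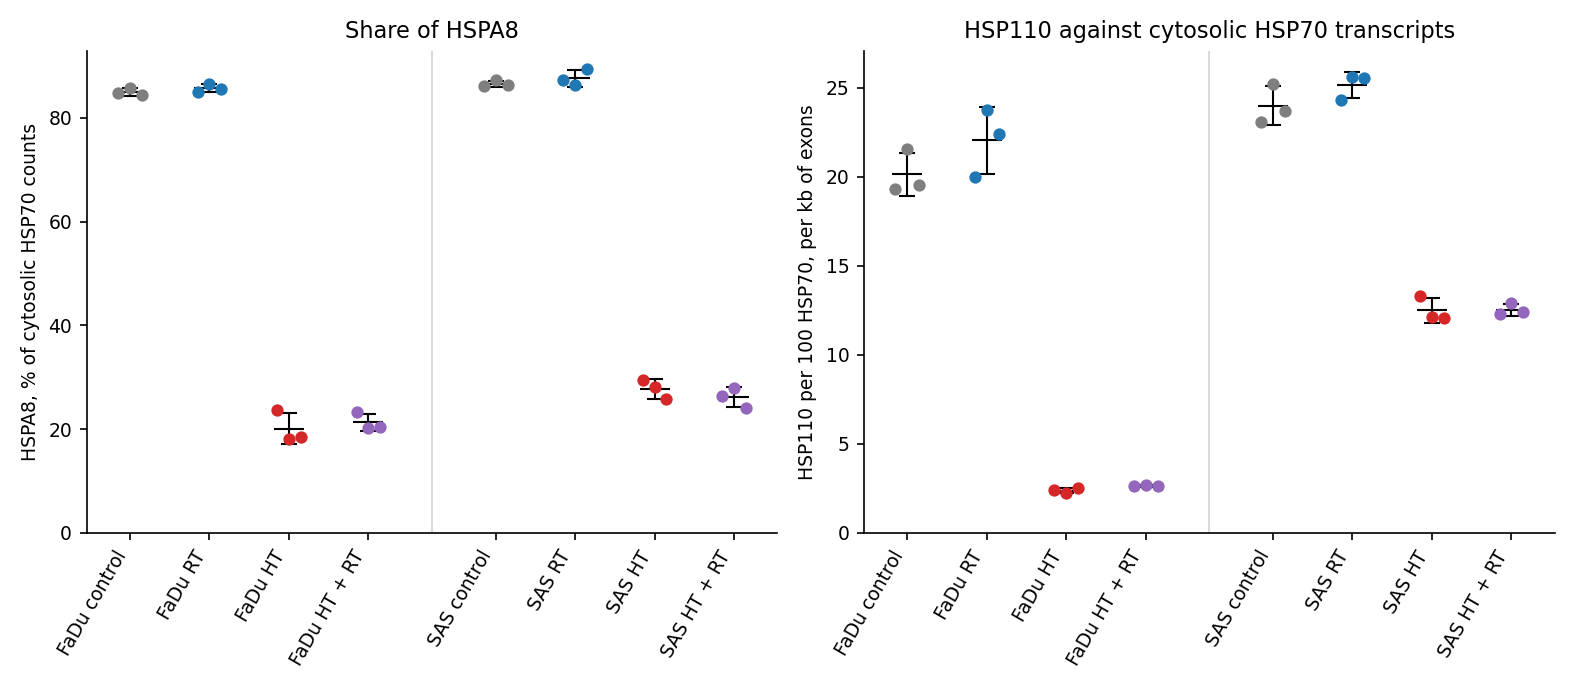
Left, HSPA8 as a percentage of the counts of the 6 cytosolic HSP70 genes, and right, HSP110 transcripts per 100 cytosolic HSP70 transcripts per kb of merged exons, each point being 1 library and the bars mean and SD (n = 3). Heated libraries lie below all unheated ones in both panels, at 18.2 to 29.4% on the left.

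HSPA2 (ENSG00000126803, chromosome 14), an HSP70 of the cytosol best known from male germ cells, was more abundant in FaDu than in SAS spheroids. The FaDu control libraries held 34.4, 30.6 and 33.6 CPM and the RT libraries 34.1, 32.5 and 30.9 CPM, against 52.9, 46.5 and 45.5 CPM after HT and 46.7, 39.2 and 41.6 CPM after HT + RT. All heated FaDu libraries lay above all unheated ones. SAS libraries held far less, with 4.02, 3.53 and 4.83 CPM in controls, 4.91, 6.03 and 5.99 CPM after RT, 5.69, 5.68 and 5.15 CPM after HT and 4.06, 5.19 and 6.37 CPM after HT + RT. Every SAS HT and every SAS RT library lay above every SAS control library, and HT + RT overlapped with all 3 other SAS groups. HSPA2 was 8.12-fold higher in FaDu than in SAS controls (log2 fold change 3.02, SE 0.13, edgeR adjusted p = 6.48e-09).

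Heat raised HSPA2 in FaDu spheroids 1.49-fold (log2 fold change 0.58, SE 0.082, edgeR adjusted p = 0.00198) and in irradiated FaDu spheroids 1.32-fold (0.40, SE 0.084, edgeR adjusted p = 0.0116), both short of the fold limit. The second value missed the threshold without FaDu RT replicate 3 (0.36, edgeR adjusted p = 0.0628), and that for HT + RT against control (0.39, edgeR adjusted p = 0.0117) did so without FaDu control replicate 2 (0.35, edgeR adjusted p = 0.0553). For HT in SAS spheroids the log2 fold change was 0.45 (SE 0.18, edgeR adjusted p = 0.0931), or 0.45 with all 8 groups in 1 fit (edgeR adjusted p = 0.0317), and for HT + RT against RT -0.067 (SE 0.19, edgeR adjusted p = 0.835). The difference between the lines was 0.16 for HT (95% confidence interval -0.19 to 0.51, edgeR adjusted p = 0.703) and 0.44 in irradiated spheroids (0.041 to 0.85, edgeR adjusted p = 0.202), so a difference between the lines was not shown.

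HSPH1 (ENSG00000120694, chromosome 13), also called HSP105, is the HSP110 protein known for being induced by heat as well as made without it. FaDu control libraries held 246, 174 and 225 CPM and RT libraries 223, 161 and 176 CPM. After HT they held 516, 507 and 847 CPM, and after HT + RT 649, 847 and 872 CPM. The lowest heated FaDu library held 507 CPM and the highest unheated one 246 CPM. SAS control libraries held 531, 550 and 426 CPM and RT libraries 515, 564 and 401 CPM, above all unheated FaDu libraries. After HT they rose to 3434, 3323 and 3840 CPM and after HT + RT to 3913, 3814 and 4091 CPM, above every other library of the series. Ordered by mean, SAS HT + RT (3939 ± 140 CPM, SD, n = 3) and SAS HT (3532 ± 272) came first, then FaDu HT + RT (789 ± 122), FaDu HT (623 ± 194), SAS control (503 ± 66.7) and SAS RT (494 ± 84.1), and last FaDu control (215 ± 37.2) and FaDu RT (187 ± 32.8). The steps from SAS HT to FaDu HT + RT and from SAS RT to FaDu control were without overlap, and unheated SAS and HT-treated FaDu libraries overlapped.

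HSPH1 was altered by heat in every heat comparison of both lines. With HT it rose 2.96-fold in FaDu (log2 fold change 1.57, SE 0.21, edgeR adjusted p = 0.00165) and 7.19-fold in SAS spheroids (2.85, SE 0.092, edgeR adjusted p = 8.03e-10). In irradiated spheroids heat raised it 4.27-fold in FaDu (2.10, SE 0.15, edgeR adjusted p = 6.82e-05) and 8.20-fold in SAS (3.04, SE 0.11, edgeR adjusted p = 3.62e-09). The difference between the lines was -1.25 for HT (SE 0.25, edgeR adjusted p = 0.00706) and -0.96 in irradiated spheroids (SE 0.20, edgeR adjusted p = 0.00721). The second difference passed the adjusted p but not the fold limit, which it passed in 6 of the fits with 1 library left out (-1.01 without FaDu RT replicate 2, -1.02 and -1.04 without FaDu HT + RT replicates 2 and 3, -1.005 and -1.08 without SAS RT replicates 1 and 2, and -1.00004 without SAS HT + RT replicate 2). Without every FaDu replicate 1 the rise in FaDu spheroids was 1.80 for HT and 2.36 in irradiated spheroids, and the differences between the lines were -1.01 (edgeR adjusted p = 0.00891) and -0.70 (edgeR adjusted p = 0.00485). HSPH1 also differed between the lines before heating, with a log2 fold change of -1.20 in FaDu against SAS controls (SE 0.13, edgeR adjusted p = 7.11e-06), and it differed by -2.47 after HT (SE 0.19, edgeR adjusted p = 1.31e-06).

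For RT in FaDu spheroids the log2 fold change of HSPH1 was -0.20 (SE 0.14, edgeR adjusted p = 0.9998), and with the replicate block it was -0.20 (edgeR adjusted p = 0.0361). For HT + RT against HT it was 0.33 in FaDu (SE 0.21, edgeR adjusted p = 0.9999) and 0.17 in SAS spheroids (SE 0.056, edgeR adjusted p = 0.873). With the block these values were 0.36 (edgeR adjusted p = 0.0104) and 0.17 (edgeR adjusted p = 0.0074). In FaDu spheroids HT + RT against HT also passed without a filter for low counts (0.33, edgeR adjusted p = 0.0274), so whether irradiation changed HSPH1 depended on the fit in all 3 comparisons. None of these values reached the fold limit. Libraries of all 3 comparisons paired by replicate number, and only the fit with the block takes this into account. Single libraries moved the FaDu values. The value for RT was -0.089 without FaDu control replicate 1, -0.33 without FaDu control replicate 2, -0.35 without FaDu RT replicate 1 and -0.11 without FaDu RT replicate 2, and that for HT + RT against HT 0.20 without FaDu HT replicate 1 or 2 and 0.62 without FaDu HT replicate 3. Without every FaDu replicate 1 they were -0.24 (edgeR adjusted p = 0.101) and 0.32 (edgeR adjusted p = 0.842).

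HSPA4 (ENSG00000170606, chromosome 5), also called APG-2, is the broadly expressed HSP110 protein, and per kb of merged exons it was the most abundant HSP110 transcript of unheated spheroids. Per kb of coding sequence HSPH1 stood above it in SAS controls (185 against 157 CPM per kb) and after RT in SAS spheroids (182 against 168). FaDu control libraries held 437, 395 and 417 CPM and RT libraries 422, 394 and 411 CPM. The heated FaDu libraries held 398, 396 and 363 CPM after HT and 415, 392 and 397 CPM after HT + RT. Heated and unheated FaDu libraries overlapped throughout. SAS control libraries held 418, 399 and 386 CPM and RT libraries 429, 429 and 426 CPM, against 836, 870 and 911 CPM after HT and 881, 930 and 931 CPM after HT + RT. Every heated SAS library thus lay above every other library of the series. By mean, SAS HT + RT (914 ± 28.5 CPM, SD, n = 3) and SAS HT (872 ± 37.6) came first, followed without overlap by SAS RT (428 ± 1.56), FaDu control (416 ± 21.3), FaDu RT (409 ± 14.1), FaDu HT + RT (402 ± 12.04), SAS control (401 ± 16.4) and FaDu HT (386 ± 19.8), each overlapping with its neighbour.

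Heat altered HSPA4 in SAS spheroids, where it rose 2.22-fold with HT (log2 fold change 1.15, SE 0.053, edgeR adjusted p = 2.25e-08) and 2.20-fold in irradiated spheroids (1.13, SE 0.046, edgeR adjusted p = 1.03e-08). In FaDu spheroids the log2 fold change was -0.087 for HT (95% confidence interval -0.24 to 0.061, edgeR adjusted p = 0.416) and -0.012 in irradiated spheroids (-0.14 to 0.12, edgeR adjusted p = 0.917). These intervals leave out a rise of the size seen in SAS spheroids. The difference between the lines was -1.21 for HT (SE 0.086, edgeR adjusted p = 8.27e-07) and -1.17 in irradiated spheroids (SE 0.072, edgeR adjusted p = 2.51e-07). Controls of the lines differed by 0.084 (edgeR adjusted p = 0.241), or by 0.25 with library totals as the only scaling (edgeR adjusted p = 0.0019), a scaling that moved the median of all genes by 0.17 in this comparison. After HT, HSPA4 was lower in FaDu than in SAS spheroids (-1.14, SE 0.067, edgeR adjusted p = 1.90e-07), and with library totals, which moved the median of all genes by 0.15 there, the value was -0.99 and short of the fold limit.

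HSPA4L (ENSG00000164070, chromosome 4), also called APG-1, is an HSP110 protein best known from testis. FaDu control libraries held 31.3, 27.9 and 33.3 CPM and RT libraries 31.9, 25.1 and 26.1 CPM. After HT they held 24.7, 37.5 and 62.0 CPM, and after HT + RT 30.3, 54.9 and 54.9 CPM. Replicate 1 was the lowest library of both heated FaDu groups and lay within the range of the unheated libraries or below it, whereas replicates 2 and 3 lay above all unheated libraries. SAS control libraries held 28.1, 27.1 and 24.5 CPM and RT libraries 25.9, 27.7 and 25.8 CPM. They held 115, 118 and 123 CPM after HT and 133, 151 and 174 CPM after HT + RT. The 2 heated SAS groups did not overlap with each other or with any other group. Their means of 153 ± 20.2 CPM for HT + RT and 118 ± 4.07 for HT (SD, n = 3) were followed by FaDu HT + RT (46.7 ± 14.2), FaDu HT (41.4 ± 19.0), FaDu control (30.8 ± 2.74), FaDu RT (27.7 ± 3.64), SAS control (26.6 ± 1.83) and SAS RT (26.5 ± 1.05), in which each neighbour overlapped.

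In SAS spheroids HSPA4L rose 4.55-fold with HT (log2 fold change 2.19, SE 0.070, edgeR adjusted p = 7.69e-10) and 5.93-fold in irradiated spheroids (2.57, SE 0.094, edgeR adjusted p = 4.28e-09). In FaDu spheroids the value for HT was 0.46 (SE 0.28, edgeR adjusted p = 0.315), and in irradiated spheroids HSPA4L rose 1.71-fold (0.77, SE 0.21, edgeR adjusted p = 0.0375). The difference between the lines was -1.70 for HT (SE 0.31, edgeR adjusted p = 0.00382) and -1.82 in irradiated spheroids (SE 0.25, edgeR adjusted p = 0.000354). Without every FaDu replicate 1 these differences were -1.42 (edgeR adjusted p = 0.000252) and -1.48 (edgeR adjusted p = 1.76e-06). The difference thus passed the test with and without these libraries.

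How far heat raised HSPA4L within FaDu spheroids depended on single libraries. Without FaDu HT replicate 1 the value for HT was 0.73 (edgeR adjusted p = 0.0205), and without replicate 1 of both groups 0.73 (edgeR adjusted p = 0.000344). Without FaDu HT replicate 3, in contrast, it was 0.034 (edgeR adjusted p = 0.932), and with all libraries but no filter for low counts 0.43 (edgeR adjusted p = 0.000689). For HT + RT against RT the call was lost without FaDu RT replicate 2 (0.71, edgeR adjusted p = 0.117) or 3 (0.72, edgeR adjusted p = 0.128), and without FaDu HT + RT replicate 2 (0.64, edgeR adjusted p = 0.119) or 3 (0.64, edgeR adjusted p = 0.149). It was also lost with library totals (0.68, edgeR adjusted p = 0.0527), a scaling that moved the median of all genes by -0.093 there. HSPA4L was altered in this comparison without FaDu HT + RT replicate 1 (1.0007) and without every FaDu replicate 1 (1.11, edgeR adjusted p = 1.47e-09). For HT + RT against control it was at 0.62 (edgeR adjusted p = 0.0610), at 0.85 without FaDu HT + RT replicate 1 (edgeR adjusted p = 0.000108) or without every FaDu replicate 1 (edgeR adjusted p = 5.66e-10) and at 0.59 with the replicate block (edgeR adjusted p = 0.000142). It passed there by DESeq2 (0.61, adjusted p = 0.0117) and without a filter (0.61, edgeR adjusted p = 7.23e-09) as well.

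HSPA4L was also the member with the lowest p for HT + RT against HT in SAS spheroids, where it stood 1.30-fold higher (log2 fold change 0.38, SE 0.082). Its unadjusted p by edgeR was 0.000579 and its edgeR adjusted p 0.296, and all 3 HT + RT libraries lay above all 3 HT libraries. With the replicate block the value was 0.38 (edgeR adjusted p = 0.000825) and by DESeq2 0.38 (adjusted p = 0.0148), and without a filter 0.37 (edgeR adjusted p = 2.28e-05), so the call depended on the fit. Here too only the fit with the block takes the pairing by replicate number into account. In controls HSPA4L was higher in FaDu than in SAS spheroids by 0.25 (SE 0.091, edgeR adjusted p = 0.0300), a call that was lost without FaDu control replicate 3 (0.20, edgeR adjusted p = 0.107) and without SAS control replicate 2 (0.25, edgeR adjusted p = 0.0661) or 3 (0.18, edgeR adjusted p = 0.115). With all libraries it was lost by DESeq2 (0.25, adjusted p = 0.0632) and with all 8 groups in 1 fit (0.22, edgeR adjusted p = 0.388). With library totals the value was 0.42 (edgeR adjusted p = 0.00189), but this scaling moved the median of all genes by 0.17 there. After HT, HSPA4L was lower in FaDu than in SAS spheroids by -1.47 (SE 0.26, edgeR adjusted p = 0.000443).

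The 3 HSP110 genes together held 662 ± 60.3 CPM in FaDu controls and 1050 ± 192 CPM after HT (SD, n = 3), and 930 ± 81.0 and 4523 ± 306 CPM in SAS spheroids. Per kb of merged exons there were 20.1 ± 1.23 HSP110 transcripts per 100 cytosolic HSP70 transcripts in FaDu controls and 24.01 ± 1.09 in SAS controls. After HT this ratio stood at 2.37 ± 0.1395 in FaDu and 12.5 ± 0.696 in SAS spheroids, and after HT + RT at 2.65 ± 0.0418 and 12.5 ± 0.3396. HSP70 transcripts thus outgrew HSP110 transcripts on this scale in both lines, and every heated FaDu library lay below every heated SAS library. Per kb of coding sequence the ratio went from 21.1 to 4.34 in FaDu but only from 27.2 ± 1.29 to 23.7 ± 1.13 in SAS spheroids, so the size of the drop in SAS spheroids depended on the length used. HSPH1 made up 32.3 ± 2.79% of HSP110 counts in FaDu controls and 58.5 ± 7.04% after HT, against 53.9 ± 2.74% and 78.1 ± 0.881% in SAS spheroids. The ratios were chosen after their values were seen, and no test was run on them.

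HSPA14 (ENSG00000187522, chromosome 10), an HSP70 relative that works at the ribosome with the J-domain protein DNAJC2, varied little. The FaDu libraries held 42.7 to 48.6 CPM over all 4 groups (control 43.3 ± 0.570, RT 46.8 ± 2.30, HT 43.7 ± 0.941 and HT + RT 44.4 ± 0.781, SD, n = 3) and the SAS libraries 54.1 to 66.1 CPM (56.4 ± 3.16, 59.3 ± 2.23, 65.1 ± 1.32 and 63.2 ± 0.384). Every SAS library lay above every FaDu library, and every heated SAS library above every unheated one. In FaDu spheroids every RT library lay above every control library, and the other pairs of groups compared overlapped. HSPA14 was lower in FaDu than in SAS spheroids in controls (log2 fold change -0.35, SE 0.069, edgeR adjusted p = 0.000806, or -0.18 with library totals, edgeR adjusted p = 0.0291) and after HT (-0.54, SE 0.068, edgeR adjusted p = 4.73e-05). It rose by 0.24 with HT in SAS spheroids (SE 0.065, edgeR adjusted p = 0.0196), a call lost without SAS control replicate 2 (0.22, edgeR adjusted p = 0.0687) or 3 (0.21, edgeR adjusted p = 0.0538), without SAS HT replicate 2 (0.23, edgeR adjusted p = 0.0708) and with library totals (0.16, edgeR adjusted p = 0.0919). The rise of 0.21 with HT + RT against control (edgeR adjusted p = 0.0283) was lost without SAS control replicate 2 or 3 or any 1 of the SAS HT + RT libraries (0.18 to 0.22, edgeR adjusted p = 0.0632 to 0.0925), by DESeq2 (0.20, adjusted p = 0.0926), with library totals (0.13, edgeR adjusted p = 0.162) and without a filter (0.19, edgeR adjusted p = 0.107). Library totals moved the median of all genes by -0.079 for HT and -0.087 for HT + RT against control in SAS spheroids. Between controls of the lines they moved it by 0.17. HT + RT against RT gave 0.13 for HSPA14 (edgeR adjusted p = 0.139). The difference in heat response between the lines was -0.17 for HT (95% confidence interval -0.36 to 0.021, edgeR adjusted p = 0.366) and -0.21 in irradiated spheroids (-0.40 to -0.030, edgeR adjusted p = 0.172).

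HSPA13 (ENSG00000155304, chromosome 21), also called STCH, consists of the ATPase core of an HSP70 without a substrate-binding domain. It was the one member that fell with heat, in SAS spheroids and, under some of the alternatives, in FaDu spheroids too. FaDu control libraries held 17.8, 13.0 and 14.7 CPM and RT libraries 15.3, 15.1 and 15.1 CPM, against 11.7, 12.9 and 9.87 CPM after HT and 10.9, 13.2 and 11.6 CPM after HT + RT. SAS control libraries held 42.8, 42.0 and 41.3 CPM and RT libraries 44.7, 41.7 and 42.8 CPM, against 26.6, 30.9 and 31.9 CPM after HT and 37.6, 35.5 and 35.0 CPM after HT + RT. Every SAS library lay above every FaDu library, and the 2 heated SAS groups overlapped with no other group. In FaDu spheroids, HT lay wholly below control and HT + RT wholly below RT, while HT + RT overlapped with control (13.2 and 13.0 CPM). By mean, the groups ran from SAS RT (43.1 ± 1.55 CPM, SD, n = 3), SAS control (42.0 ± 0.771), SAS HT + RT (36.0 ± 1.41) and SAS HT (29.8 ± 2.78) to FaDu control (15.2 ± 2.44), FaDu RT (15.2 ± 0.0939), FaDu HT + RT (11.9 ± 1.17) and FaDu HT (11.5 ± 1.51).

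With HT in SAS spheroids HSPA13 fell by 0.46 on the log2 scale (SE 0.083, edgeR adjusted p = 0.00178). In irradiated SAS spheroids it fell by 0.22 (SE 0.071, edgeR adjusted p = 0.0402), which was lost without any 1 of the SAS RT libraries or without SAS HT + RT replicate 2 or 3 (-0.24 to -0.18, edgeR adjusted p = 0.0655 to 0.1405), by DESeq2 (-0.23, adjusted p = 0.0812) and with all 8 groups in 1 fit (-0.21, edgeR adjusted p = 0.122). For HT + RT against control in SAS spheroids the value was -0.17 (edgeR adjusted p = 0.105), or -0.26 with library totals (edgeR adjusted p = 0.0180). Library totals moved the median of all genes by -0.087 in this comparison. Against HT, HT + RT gave 0.29 (SE 0.085, unadjusted p by edgeR 0.00561, edgeR adjusted p = 0.772), and all 3 SAS HT + RT libraries lay above all 3 HT libraries. In FaDu spheroids the log2 fold changes were -0.38 for HT (SE 0.15, edgeR adjusted p = 0.114), -0.33 for HT + RT against control (edgeR adjusted p = 0.129) and -0.34 in irradiated spheroids (SE 0.11, edgeR adjusted p = 0.0591). With the replicate block, for a pairing found in all 3 comparisons, these were -0.38 (edgeR adjusted p = 0.0244), -0.33 (edgeR adjusted p = 0.0308) and -0.34 (edgeR adjusted p = 0.0275). All 3 also passed with all 8 groups in 1 fit (-0.40, -0.36 and -0.37, with edgeR adjusted p = 0.00871, 0.0161 and 0.0145). Without a filter the value for HT was -0.40 (edgeR adjusted p = 0.0431). The value in irradiated spheroids was -0.42 without FaDu HT + RT replicate 2 (edgeR adjusted p = 0.0474). With library totals that value was -0.43 (edgeR adjusted p = 0.0234), but this scaling moved the median of all genes by -0.093 there. Without every FaDu replicate 1, in contrast, the 3 values were nearer to zero, at -0.25 for HT (edgeR adjusted p = 0.174), -0.17 for HT + RT against control (edgeR adjusted p = 0.317) and -0.29 in irradiated spheroids (edgeR adjusted p = 0.0559). Without FaDu control replicate 1 alone the first 2 were -0.25 (edgeR adjusted p = 0.287) and -0.21 (edgeR adjusted p = 0.308). The difference between the lines was 0.11 for HT (95% confidence interval -0.24 to 0.47, edgeR adjusted p = 0.823) and -0.14 in irradiated spheroids (-0.39 to 0.11, edgeR adjusted p = 0.582). HSPA13 was lower in FaDu than in SAS spheroids by -1.44 in controls (SE 0.11, edgeR adjusted p = 5.17e-07) and by -1.34 after HT (SE 0.12, edgeR adjusted p = 4.56e-06).

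HSPA12A (ENSG00000165868, chromosome 10) and HSPA12B (ENSG00000132622, chromosome 20) are distant relatives, of which the second is best known from endothelial cells. HSPA12A held 11.1 to 15.8 CPM in FaDu and 4.23 to 8.17 CPM in SAS libraries. The lines did not overlap, and within each line groups overlapped except SAS HT and SAS control. HSPA12A was higher in FaDu than in SAS spheroids by 1.22 in controls (SE 0.14, edgeR adjusted p = 1.54e-05) and by 1.03 after HT (SE 0.14, edgeR adjusted p = 8.61e-05), the second being short of the fold limit without FaDu HT replicate 3 (0.94) or SAS HT replicate 1 (0.98), without a filter for low counts (0.99) and with all 8 groups in 1 fit (0.97). Its log2 fold changes by heat lay between -0.11 and 0.33 in the 6 heat comparisons, and it passed the test in none of them by edgeR or DESeq2. The difference in heat response between the lines was -0.18 for HT (95% confidence interval -0.58 to 0.23, edgeR adjusted p = 0.723) and -0.32 in irradiated spheroids (-0.96 to 0.32, edgeR adjusted p = 0.650) for HSPA12A, and -0.33 (-1.89 to 1.23, edgeR adjusted p = 0.898) and -0.25 (-1.87 to 1.38, edgeR adjusted p = 0.931) for HSPA12B. HSPA12B held 0.166 to 0.971 CPM, with 0.525, 0.662 and 0.965 CPM in FaDu controls and 0.326, 0.285 and 0.471 CPM in SAS controls. Its control levels differed by 1.03 (SE 0.41, edgeR adjusted p = 0.0380), which was lost without FaDu control replicate 2 (1.09, edgeR adjusted p = 0.0642) or 3 (0.76, edgeR adjusted p = 0.181) and without SAS control replicate 1 (0.95, edgeR adjusted p = 0.112) or 2 (0.88, edgeR adjusted p = 0.123). With all libraries it was lost by DESeq2 (adjusted p = 0.190), without a filter (edgeR adjusted p = 0.0889), with all 8 groups in 1 fit (edgeR adjusted p = 0.0895) and with the block (edgeR adjusted p = 0.0591).

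**Figure D5:**
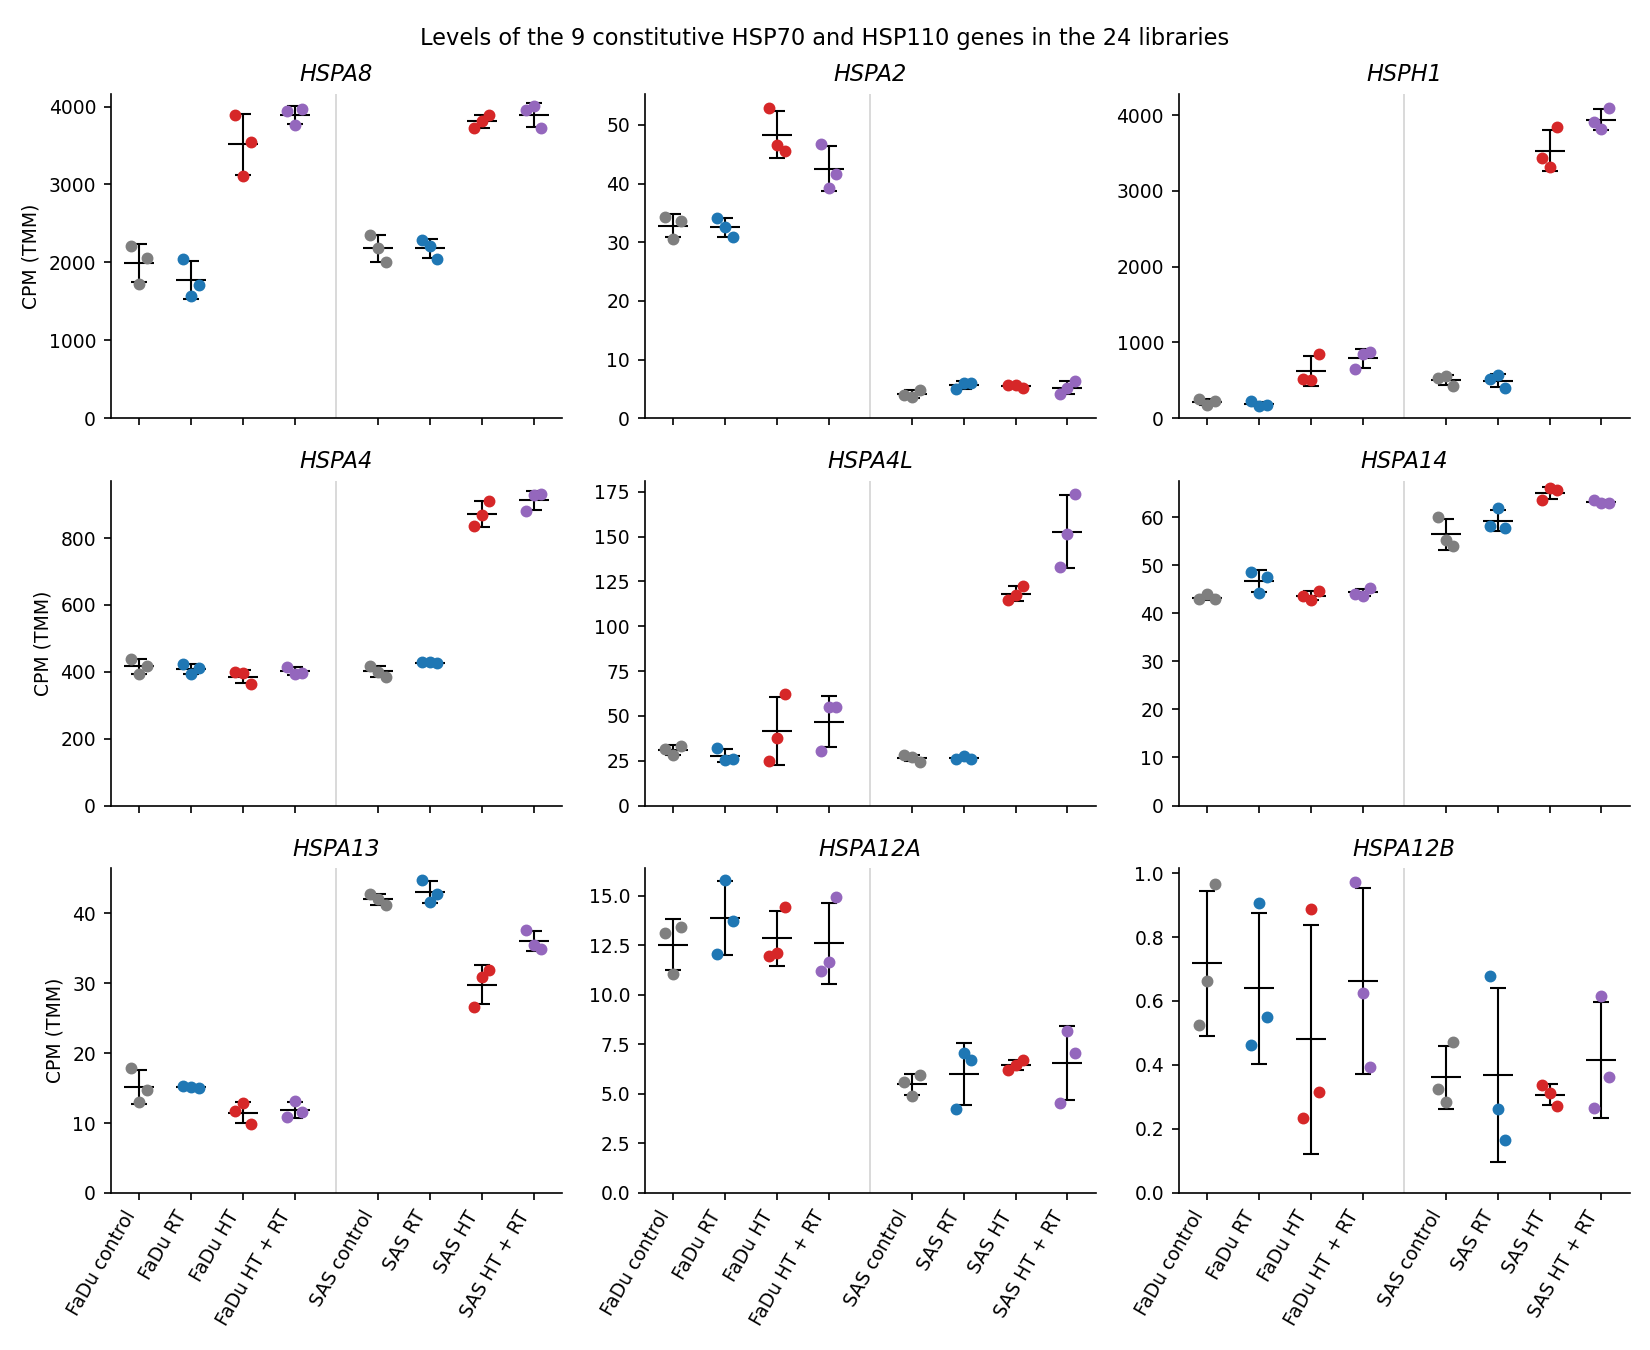
Level of each of the 9 members in CPM in every library, with mean and SD (n = 3), for the 4 FaDu groups left of the line and the 4 SAS groups right of it. HSPH1, HSPA4 and HSPA4L stand highest in the heated SAS groups, and HSPA2 and HSPA12A stand higher in FaDu than in SAS libraries.

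Between the lines, 5 of 9 members were altered in controls (HSPA2, HSPA12A and HSPA12B higher and HSPH1 and HSPA13 lower in FaDu), against 38.1% of all genes, and 7 passed the adjusted p alone (HSPA4L and HSPA14 besides), against 75% of all genes. After HT, 6 of 8 were altered (HSPA2 and HSPA12A higher and HSPH1, HSPA4, HSPA4L and HSPA13 lower in FaDu), against 40.1%, and 7 passed the adjusted p alone, against 73.2%. A difference between lines was thus about as common among all genes as among the members at the adjusted p alone. HSPA2 was at 3.16 after HT (SE 0.11, edgeR adjusted p = 5.37e-09), and HSPA8 at -0.098 in controls (edgeR adjusted p = 0.352) and -0.083 after HT (edgeR adjusted p = 0.399). Without FaDu control replicate 1 HSPA8 was at -0.17 in controls (edgeR adjusted p = 0.0427).

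Differences in heat response were rarer among all genes. By the test of the difference between the lines, 3 of 9 members were altered for HT (HSPH1, HSPA4 and HSPA4L), against 2.74% of all genes, and the same 3 were those past the adjusted p alone, against 5.55%. In irradiated spheroids, in libraries not used in that test, 2 were altered (HSPA4 and HSPA4L), against 3.36%, and 3 passed the adjusted p alone (HSPH1 besides), against 7.59% of all genes. All of these differences were negative, with the weaker response in FaDu spheroids, and the 3 genes are the HSP110 genes of the list. The comparisons of controls and of HT groups between the lines use the same libraries as the first of these tests, so their values are not independent of it.

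The partners of the members are given by lists, and the shares of all genes given above for each comparison apply to them as well. The 4 heat-inducible HSP70 genes were all altered upward in the 4 heat comparisons. Their median log2 fold change for HT was 4.90 in FaDu and 4.62 in SAS spheroids, and for heat in irradiated spheroids 5.21 and 4.86. The median over all genes tested was 0.0061, 0.0025, 0.0083 and 0.0034 in these 4 comparisons. For these HSP70 genes the difference in heat response, FaDu minus SAS, was positive throughout. It lay between 0.27 and 1.98 for HT and between 0.23 and 2.27 in irradiated spheroids. By edgeR 1 of the 4 was altered in each of these tests, against 2.74% and 3.36% of all genes. Of the organelle genes HSPA5, HSPA9 and HYOU1, the values for HT lay between -0.16 and 0.012 in FaDu spheroids, short of the adjusted p, and in SAS spheroids HSPA5 fell by 0.36 and HYOU1 by 0.19 with HT. The heat shock factor genes HSF1 and HSF2 were not called with HT in either line (median -0.10 in FaDu and -0.11 in SAS spheroids), and HSF2 fell by 0.42 in irradiated SAS spheroids. With HT + RT against control, 1 of the 2 factors fell in each line, at -0.34 in FaDu and -0.47 in SAS spheroids.

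J-domain partners, which deliver substrates to HSP70, gave 4 of 14 altered with HT in FaDu spheroids (DNAJA1 1.15, DNAJA4 3.64, DNAJB1 4.96 and DNAJB4 3.03), with 5 up and 1 down at the adjusted p alone and a median of 0.26. Those altered in SAS spheroids were 5 (DNAJA1 1.87, DNAJA4 4.48, DNAJB1 4.23, DNAJB4 4.53 and DNAJB2 1.25), with 8 up at the adjusted p alone and a median of 0.59. In irradiated spheroids 4 were altered in FaDu and 6 in SAS, with medians of 0.38 and 0.64. Of all genes, 4.97% and 6.03% were altered with HT in FaDu and SAS spheroids, and 5.39% and 6.6% in irradiated spheroids. At the adjusted p alone, 17.6% and 23.6% of all genes passed with HT. The heat response of DNAJB4 was weaker in FaDu than in SAS spheroids for HT (-1.47, edgeR adjusted p = 0.00296) and in irradiated spheroids (-1.57, edgeR adjusted p = 0.00118), whereas that of DNAJB1 was stronger (0.76, edgeR adjusted p = 0.00496, and 0.63, edgeR adjusted p = 0.0292). By the adjusted p of edgeR the difference was negative for 4 of the 14 partners and positive for 1 with HT, and negative for 3 and positive for 1 in irradiated spheroids. Of all genes, 5.55% and 7.59% passed the adjusted p in these tests.

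Of the 6 nucleotide exchange factors outside the HSP110 family, BAG3, which links HSP70 to autophagy, was the one altered with HT, at 1.57 in FaDu and 2.99 in SAS spheroids. The difference between the lines was -1.39 for HT (edgeR adjusted p = 0.00291) and -0.78 in irradiated spheroids (edgeR adjusted p = 0.0445). The medians of the 6 were 0.11 and 0.066 for HT, and BAG2 fell by 0.28 in FaDu spheroids. Among HSP90 genes and the co-chaperones that link HSP70 to HSP90 or to protein disposal, none of 5 reached the fold limit with HT, while 2 rose in FaDu (HSP90AA1 0.65 and HSP90AB1 0.47) and 4 in SAS spheroids, with medians of 0.20 and 0.77. For RT against control the log2 fold changes of all genes in these lists lay between -0.29 and 0.37 in FaDu and between -0.38 and 0.95 in SAS spheroids, with edgeR adjusted p of at least 0.877 and 0.826. Of the snoRNA genes in HSPA8 introns, SNORD14E was the one of 3 with enough counts to be tested, and it was altered with HT in FaDu (4.85, edgeR adjusted p = 0.00147) and SAS spheroids (2.98, edgeR adjusted p = 0.000616).

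The members share sequence to different degrees, which bears on how reads of one may be counted for another. Coding sequences were compared by global alignment of nucleotides. HSPA8 was 73.5% identical to HSPA2 and 73.8% to HSPA1A, and HSPA2 80.1% to HSPA1A. The HSP110 genes were 66.9% (HSPA4 and HSPA4L), 64.9% (HSPH1 and HSPA4) and 64% identical (HSPH1 and HSPA4L), and 46.9 to 47.6% to HSPA8. HSPA12A and HSPA12B were 65.6% identical. At the length of 50 bases, 0% of runs in the annotated transcripts of HSPH1, HSPA4, HSPA13 and HSPA12B recurred, on either strand, in any other annotated gene. For HSPA8 it was 8.23%, of which the pseudogene HSPA8P1 took the largest part (2.8%), for HSPA4L 8.06%, for HSPA12A 5.15% and for HSPA2 0.745%. The largest part for HSPA4L (4.19%) was shared with AC093591.2 and that for HSPA12A (4.13%) with AC016825.1. Both are antisense genes that overlap the member on the opposite strand. HSPA14 shared 15.9% with a second gene of the same symbol in the annotation, which is not among the identifiers of the count tables.

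Counts on the 17 annotated HSPA8 pseudogenes were small beside those on HSPA8. They made up 0.0236 to 0.558% of the summed counts per library, and HSPA8P5 held most of them, with 2300 counts over the 24 libraries. Adding them to HSPA8 before the fit changed no call of HSPA8.

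For 3 members, the genes with the most alike pattern are named by the Pearson correlation of log2 CPM over the 24 libraries, among 10187 genes, as a description that rests largely on the contrast of heated and unheated groups. HSPA8 was most like HSPA1A (r = 0.977), HSPA1L (0.967) and DNAJB1 (0.966), and these r were 0.957 to 0.971 within FaDu and 0.984 to 0.993 within SAS libraries. HSPH1 was most like DNAJA1 (0.994), CACYBP (0.991) and NAB2 (0.983), with 0.976 to 0.995 within FaDu and 0.978 to 0.998 within SAS libraries. HSPA4 was most like NUDT4 (0.979), HSD17B7 (0.968) and YKT6 (0.965), and here the likeness lay within SAS libraries (0.990, 0.968 and 0.989), while it was 0.148, 0.524 and 0.587 within FaDu libraries. NUDT4 stood at 53.6 ± 5.35 CPM in SAS controls and 110 ± 9.05 CPM after HT (SD, n = 3), and at 47.2 ± 0.381 and 45.3 ± 4.98 CPM in FaDu spheroids. No p is given for these values.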

How the data were processed

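RNA-seq counts of 24 libraries were used, with 3 per group, which the study's methods describe as independent experiments. The authors deposited raw read counts per Ensembl gene; their processing notes name bcl2fastq, DESeq2 and the build mm9, a mouse build although the identifiers are human, and the aligner, the counting program and whether the strand of the directional kit was used are not given in the sources used here. The deposited normalised counts and test results were not used here.

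Symbols were matched through GENCODE v29, which held 56898 of the 57500 identifiers (the 602 others carried 0.0217% of counts). Members and lists were chosen with earlier results of these data known. Each of 14 comparisons was fitted on the groups it compares with edgeR 4.0.16 in R 4.3.3 (TMM, filterByExpr with a minimum count of 10, quasi-likelihood test, Benjamini-Hochberg over all genes tested), and altered means an adjusted p under 0.05 with an absolute log2 fold change over 1. The SE was derived from each log2 fold change and its F statistic, as the absolute ratio of the former to the root of the latter. Alternatives were DESeq2 1.42.0, RLE factors, library totals, no filter, all 8 groups in 1 fit, a replicate block, the adjusted p alone, HSPA8 summed with its pseudogenes, shares per kb and each library left out in turn (96 fits). Leaving out every FaDu replicate 1 was chosen after seeing the data.

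Pairs by replicate number, the only source of pairing, were checked by the correlation, across genes, of how the libraries of a pair deviate from the means of their groups. It was over 0.1 in all pairs of the 5 FaDu comparisons (0.16 to 0.57) and of SAS RT, HT + RT against control, RT and HT (0.15 to 0.30), but not of SAS HT (0.025 to 0.18), of the comparisons between lines or of the tests of differences in response. The main fits hold no replicate block all the same, because the study's methods name none.

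Genes named in the text are the 9 members, the lists of inducible, organelle and partner chaperones, heat shock factors and snoRNAs of HSPA8, pseudogenes named after a member, and for HSPA8, HSPA4 and HSPH1 the 3 genes with the highest correlation of log2 CPM (prior count 2) among genes with an average of at least 3. Cell markers were squamous epithelium (KRT5, KRT14, KRT6A, TP63, EPCAM, CDH1), fibroblast (COL1A1, COL1A2, PDGFRB), endothelium (PECAM1, CDH5, VWF) and leukocyte (PTPRC, CD3E, CD68). Likeness of proteins was not run and was replaced, after seeing the data, by identity of coding nucleotides.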

Additional observations from a re-analysis of the deposited data

Results flagged for a closer look

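The 3 HSP110 genes had lower log2 fold changes with heat in FaDu than in SAS spheroids by the test of the difference itself. With all libraries and the filter for low counts, only HSPH1 of these genes rose in both FaDu heat comparisons. For HT in FaDu spheroids, HSPA4L also rose without a filter (0.43, edgeR adjusted p = 0.000689). It did so without every FaDu replicate 1 (0.73, edgeR adjusted p = 0.000344), but stood at 0.034 without FaDu HT replicate 3. For HT the difference of the log2 fold changes, FaDu minus SAS, was -1.25 for HSPH1, -1.21 for HSPA4 and -1.70 for HSPA4L. In irradiated spheroids, in other libraries, it was -0.96 for HSPH1, -1.17 for HSPA4 and -1.82 for HSPA4L. The reason for these differences was not tested.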

How the results depend on the processing

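Of 1748 values of members under the alternatives, 1724 kept their side of the threshold for altered, 13 lost the call, 11 gained it and 0 called values changed sign. Among those 1724, 74 values that were not called changed sign. By the adjusted p alone, 3 members were called for FaDu HT, 3 for FaDu HT + RT against control, 4 for FaDu HT + RT against RT, 6 for SAS HT and 5 each for SAS HT + RT against control and against RT. With 1 library left out, the count of altered members ranged from 1 to 2 for FaDu HT + RT against control, 2 to 3 for FaDu HT + RT against RT, 4 to 5 between controls of the lines, 5 to 6 between the lines after HT and 2 to 3 for the difference in heat response in irradiated spheroids. Among all genes, 701 to 1127, 627 to 1050, 6141 to 6438, 6768 to 7177 and 479 to 619 were altered in this order. Each of these fits tested between 16174 and 18157 genes. Every FaDu replicate 1 was also left out, a choice made after seeing the data. The first comparison then had 2 altered members instead of 1, as HSPA8 stood at 1.05. The second had 3 instead of 2, as HSPA4L stood at 1.11. Of all genes, 1324 of 16612 were then altered in the first, against 910 of 15896 with all libraries. In the second these were 1252 of 16668, against 857 of 15905. The cause was not tested.

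Per kb of merged exons the share of HSPA8 in cytosolic HSP70 transcripts was 75.6, 76.8, 11.4 and 12.1% in FaDu control, RT, HT and HT + RT, and 76.97, 78.7, 16.4 and 15.3% in SAS spheroids, lower than by counts because HSPA8 has longer merged exons than HSPA1A, HSPA1B, HSPA1L and HSPA6. With a replicate block the call of HSPA12B between controls was lost (1.00017, edgeR adjusted p = 0.0591), and no other altered call of a member changed. At 3 to 23 counts per library, HSPA12B is limited by depth.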

Other observations

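SNORD14E, a small nucleolar RNA gene in an intron of HSPA8, was at 0.42, 0.458 and 0.0839 CPM in FaDu controls and at 16.4, 5.33 and 5.28 CPM after HT. After HT + RT it was at 8.68, 4.12 and 5.59 CPM. SAS controls held 0.0544, 0.285 and 0.471 CPM, against 2.25, 2.24 and 1.79 CPM after HT. The heated groups lay above the unheated ones in both lines. SNORD14E had only 8, 9 and 2 counts in FaDu control libraries and 1, 5 and 8 counts in SAS control libraries. Whether its reads came from unspliced HSPA8 transcripts was not tested.

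The genes whose pattern was closest to that of HSPA4 had raised levels in heated SAS libraries and level values in FaDu libraries. YKT6, a SNARE protein of vesicle fusion, held 219 ± 9.27 CPM in SAS controls and 333 ± 20.8 CPM after HT (SD, n = 3), against 190 ± 3.25 and 190 ± 6.42 CPM in FaDu spheroids. HSD17B7, an enzyme of cholesterol synthesis, held 29.5 ± 2.50 and 61.7 ± 9.15 CPM in SAS spheroids, against 27.1 ± 3.08 and 26.7 ± 4.03 CPM in FaDu spheroids.

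Pseudogenes beside or derived from members also differed between groups. AC093591.3, a processed pseudogene on the same strand within HSPA4L but without shared exon bases, was chosen after its values were seen. It held 0.109, 0 and 0.0589 CPM in SAS controls and 9.41, 7.15 and 9.27 CPM after HT, against 0.0525, 0.204 and 0 CPM and 0.409, 0.732 and 1.64 CPM in FaDu spheroids. Whether the reads of AC093591.3 came from unspliced HSPA4L transcripts was not tested. HSPA8P5 held 5.44, 5.47 and 6.01 CPM in SAS controls and 20.6, 12.5 and 15.4 CPM after HT, while all FaDu libraries held 0.0523 to 0.257 CPM of it.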
